A study of Homo sapiens with 12 samples.

Results

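The genes described here are 73 regulators of transcription among the 3699 genes of a table deposited for SW480, an established cell line from a human colorectal adenocarcinoma. They were matched by symbol, with earlier results of these data known. The symbols were SOX, KLF, GATA, TBX, ETV, ELF, EGR, IRF, ATF or E2F followed by a digit, and FOX followed by a letter. HOX followed by A to D and the FOS, JUN and small MAF genes also counted. KLF6, ATF3, E2F2 and symbols with a hyphen were left out. After these exclusions the set held 25 HOX, 13 FOX, 10 SOX, 6 ETV and ELF, 4 TBX, 3 KLF and 3 IRF symbols. It also held 2 E2F, 2 FOS, 2 small MAF, 1 JUN, 1 EGR and 1 ATF symbols, and no GATA symbol. Of the 73, 71 belong to these families of DNA-binding proteins. The other two match by symbol only: ATF7IP encodes a protein that interacts with the factor ATF7, and FOXRED2 encodes an oxidoreductase of the endoplasmic reticulum.

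HOX proteins carry a homeodomain, and their genes lie in 4 clusters in the order in which they are used along the body axis. Intestinal epithelium and colorectal tumours keep a position-dependent HOX pattern. SOX proteins bind DNA through an HMG box and FOX proteins through a forkhead domain, and both families hold regulators of cell fate. FOS and JUN proteins pair through a basic leucine zipper (bZIP) to form AP-1, which answers to growth factor and stress signals. Small MAF proteins are bZIP factors with no activation domain of their own, and they pair with partners such as NRF2.

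The 12 libraries fall into 4 groups of 3: cells given GLY and PUE together (GLY_PUE), GLY alone, PUE alone, and untreated cells. The abbreviations are kept as the labels give them. All cells were grown for 12 h before treatment, and the protocol gives a further 12 h with treatment for all groups, while the labels of the GLY libraries read 12, 13 and 14 h. The series' title names a study of a herbal decoction and Wnt signalling, and each comparison below asks which regulators differ with GLY or with PUE. Replicates share 1 cell line, and nothing in the labels says that they were separate cultures, so a p-value here is set against a library-to-library spread that could be technical.

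Every gene listed by the authors passed their limits in 1 or more of their own comparisons, an absolute log2 ratio from 1 upward and a q-value no higher than 0.001. Counts of changed members are therefore not independent evidence of a response, and they are to be read against the shares of all tested genes, given with the counts of the main families and lists. Library totals recovered from the table lay between 19.7 and 21.4 M (1e+06) reads, and the listed genes held 13.8% to 15.4% of them. Values are in CPM (counts per 1e+06 reads of the recovered total) for 1 gene across libraries, and in FPKM, which also divides by gene length, for levels between genes. Measured this way, fewer transcripts per cell and fewer cells that carry them cannot be told apart. The authors' counts were fractional for 31 members in some library, and in GENCODE release 29 exons of 27 members overlap a gene on the opposite strand and those of 21 a gene on the same strand. Strand-specific counting is not stated, so reads of such pairs, among them MAFK with TMEM184A and the neighbouring HOX genes with each other, may not be separable. Pooled over the 4 groups, the libraries numbered 3 differed from the others, and no test was run within a single group. GLY replicate 1 lay apart from the other GLY libraries in some members, such as E2F8 at 2.15, 7.91 and 7.65 CPM. With group means kept, 12 of 73 members were higher and 5 lower in the libraries numbered 3, beside 18.1% and 5.31% of all 3429 genes tested. Markers of cell types were fixed for this report. The table held 2 of 12 for colon epithelium, 2 of 8 for leukocytes, 1 of 7 for fibroblasts and 0 of 6 for endothelium. Their summed FPKM was 4.16 to 7.29 in GLY against 24.95 to 31.86 in untreated libraries for colon epithelium (VIL1 and CDX2, the other 10 not analysed here), 9.49 to 13.48 against 2.60 to 3.89 for leukocytes (CD14 and CD68), and 0.29 to 0.62 against 0.15 to 0.18 for the fibroblast marker PDGFRB. The leukocyte markers went opposite ways with GLY, CD14 at −3.01 (SE 0.54, adjusted p = 0.000594) and CD68 at 2.16 (SE 0.26, adjusted p = 5.46e-05) as log2 fold changes in edgeR. The part of these markers in the results below was not tested.

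Promoter sequences of 5 members, chosen after the matches were seen, are shown first. They carry letters that CREB and ATF, serum response factor or E2F proteins are known to recognise, and none holds the AP-1 element searched for. They are the 250 bases before the start of the gene, read 5′ to 3′ on the gene's strand from RefSeq on GRCh38.p14, and of the 73 members 45 had an entry. Capitals mark every match on either strand to TGACG (the core of a cyclic AMP response element), TGACNTCA (the whole element or a variant), TGANTCA (the AP-1 element), the CArG box (the element of serum response factor: CC, then 6 letters of A or T, then GG) and TTTNNCGC (an E2F site). TGACG lies inside TGACGTCA, so such a match counts for both. JUN spans chr1:58784048-58784297 on the minus strand, EGR1 chr5:138465229-138465478 on the plus strand, MAFF chr22:38201744-38201993 on the plus strand (the first of 2 listed starts), KLF14 chr7:130734208-130734457 on the minus strand and E2F1 chr20:33686386-33686635 on the minus strand.
JUN: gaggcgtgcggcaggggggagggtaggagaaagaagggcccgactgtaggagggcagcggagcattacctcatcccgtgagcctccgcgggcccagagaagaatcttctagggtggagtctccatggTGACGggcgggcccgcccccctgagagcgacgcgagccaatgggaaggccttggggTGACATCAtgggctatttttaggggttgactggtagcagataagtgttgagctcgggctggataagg
EGR1: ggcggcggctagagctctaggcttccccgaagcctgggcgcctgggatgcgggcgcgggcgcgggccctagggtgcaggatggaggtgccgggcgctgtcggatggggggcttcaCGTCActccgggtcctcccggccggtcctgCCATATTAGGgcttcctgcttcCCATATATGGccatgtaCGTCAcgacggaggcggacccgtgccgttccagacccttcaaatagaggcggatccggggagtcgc
MAFF: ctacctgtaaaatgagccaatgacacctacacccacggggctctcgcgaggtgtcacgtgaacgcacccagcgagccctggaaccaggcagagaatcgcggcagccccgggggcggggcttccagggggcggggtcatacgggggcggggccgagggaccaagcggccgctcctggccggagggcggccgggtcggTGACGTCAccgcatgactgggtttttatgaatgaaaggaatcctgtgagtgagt
KLF14: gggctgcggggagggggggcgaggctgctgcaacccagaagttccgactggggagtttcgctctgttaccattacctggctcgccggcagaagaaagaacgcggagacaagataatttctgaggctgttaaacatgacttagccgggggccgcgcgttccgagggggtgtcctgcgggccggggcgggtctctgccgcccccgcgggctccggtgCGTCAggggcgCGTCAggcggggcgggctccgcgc
E2F1: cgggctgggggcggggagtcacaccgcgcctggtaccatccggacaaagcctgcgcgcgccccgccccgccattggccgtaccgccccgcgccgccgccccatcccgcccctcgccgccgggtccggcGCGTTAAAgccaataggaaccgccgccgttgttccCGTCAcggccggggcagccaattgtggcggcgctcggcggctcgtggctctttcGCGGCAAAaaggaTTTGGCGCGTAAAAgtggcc

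TGACG was present upstream of all 5 of the members higher with GLY that had an entry (EGR1, JUN, KLF14, KLF16 and MAFF), of 10 of 36 lower members, and of 24.9% of 27305 human genes. The longer TGACNTCA was present in JUN and MAFF, in 2 of 36 lower members (IRF8 and SOX4), and in 8.29% of genes. TGANTCA was found in none of the 5 and in 2 of 36 lower members (FOXO4 and KLF12), against 8.06% of genes. The CArG box occurred 2 times in EGR1, in none of the other 4 higher members and no lower member with an entry, and in 1.44% of genes. The E2F letters occurred in 8 of 36 lower members, among them E2F1 itself, in none of the 5 higher ones, and in 7.15% of genes. These matches describe the letters of the windows and show no binding.

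With GLY, most of the 73 regulators fell and a small group rose, relative to library totals. That group included the AP-1 genes FOSL1 and JUN and the small MAF genes MAFF and MAFK. FOSB did not pass, and FOS, FOSL2, JUNB, JUND and MAFG were not among the 73 members. Against untreated cells 59 members were lower and 9 higher with GLY at an adjusted p under 0.05 (edgeR's quasi-likelihood test, Benjamini-Hochberg adjustment over all 3429 genes tested). That is 80.8% lower and 12.3% higher, beside 64.6% and 19.7% of all genes tested (84.3% in either direction). The members' median log2 fold change was −1.45, against −1.15 over all genes tested. Groups did not overlap in 60 members that were lower and 8 that were higher, beside 65.5% and 17.8% of all genes (83.3% in either direction). The same contrast in the presence of PUE gave 57 members lower and 10 higher (GLY_PUE against PUE), beside 57.3% and 20.6% of all genes (77.8% in either direction), with medians of −1.34 over members and −1.05 over all. Its groups did not overlap in 59 lower and 12 higher members, beside 65.8% and 22% of all genes (87.8% in either direction). TMM, a scaling that assumes that most listed genes do not change, raises log2 fold changes by 1.13 and 1.02 in these comparisons. It leaves 18 lower and 12 higher members for GLY against untreated, beside 346 lower and 812 higher of all 3429 genes tested. For GLY_PUE against PUE it leaves 21 lower and 12 higher members, beside 402 and 830 of all genes. For GLY against untreated all 18 lower and 9 of the 12 higher members were called in the same direction with library totals. There 12 members with a negative value took a positive one without being called. Members were named by the smallest p in each family, and any other is marked as chosen after its values were seen. The statements below are relative to library totals, with TMM counts beside family counts and TMM values beside many of the genes. Shares of all genes printed beside a family are those with library totals. Its TMM counts are to be read against the TMM counts over all genes given above.

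**Figure D1:**
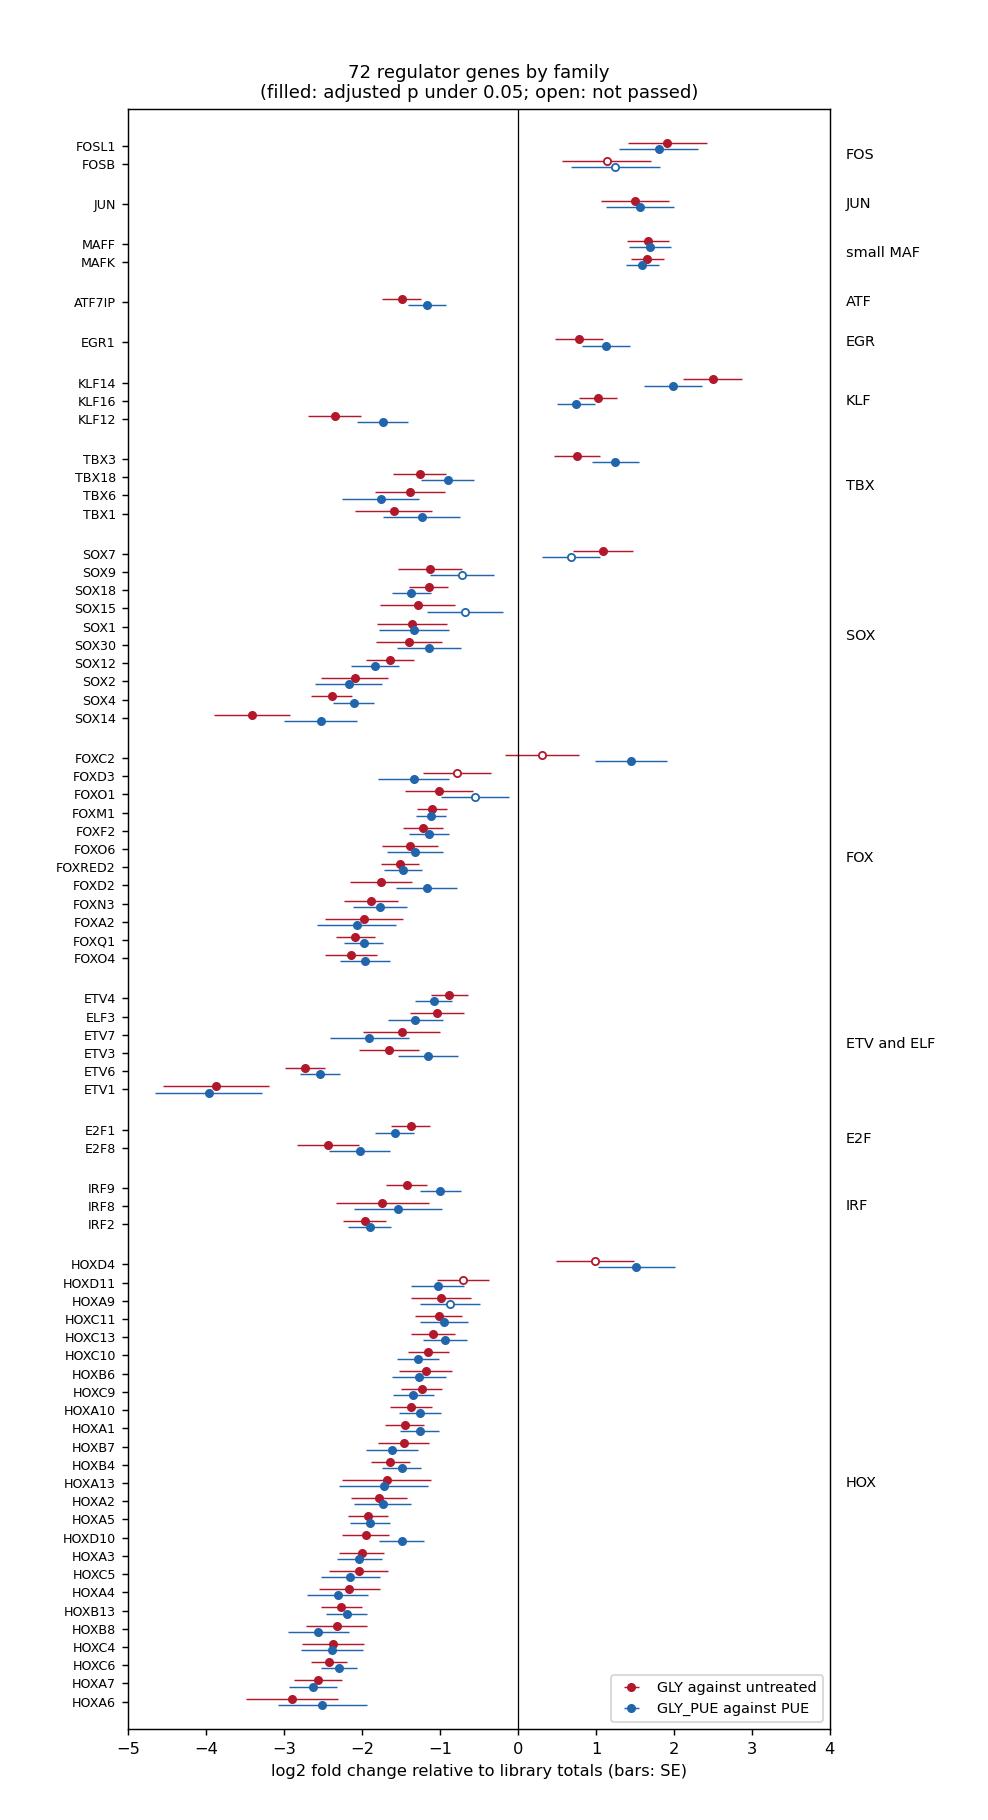
Log2 fold changes of 72 of the 73 members with SE (horizontal axis, relative to library totals), for GLY against untreated (red) and GLY_PUE against PUE (blue), grouped by family. Filled points passed an adjusted p of 0.05; FOS, JUN, small MAF and EGR lie right of 0, and 9 members are filled on that side for GLY against untreated, against 58 on the left.

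On the per-length scale FOSL1 had the highest FPKM of all members, at 764 ± 284 in GLY and 203 ± 115 in untreated libraries (SD, n = 3 each). In GLY libraries it was followed by EGR1 (130.4 ± 44.5), JUN (78.3 ± 7.64) and ETV4 (71.3 ± 25.5), whose neighbours in this order overlap in their spread. In untreated libraries the order after FOSL1 was ETV4 (129 ± 3.49), FOXQ1 (94.8 ± 22.7), FOXM1 (93.4 ± 8.27) and EGR1 (76.1 ± 20.8). FOXQ1 and FOXM1 do not differ beyond their spread there, and ETV4 and FOXM1 are given for their level, chosen after it was seen. Among the lowest SOX14, IRF8 and HOXA6 had GLY libraries at or under 3 counts.

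Among the AP-1 genes, FOSL1, which encodes the FOS-related protein FRA1, had 1763, 1162 and 883 CPM in the 3 GLY libraries, against 416, 473 and 121 CPM in the untreated ones. All GLY libraries lay above all untreated ones, and in both groups replicate 3 was the lowest (log2 fold change 1.91, SE 0.51, adjusted p = 0.00529; TMM 3.07). With PUE present FOSL1 had 1192, 1194 and 935 CPM in GLY_PUE libraries and 413, 410.4 and 129 CPM in PUE libraries (log2 fold change 1.80, SE 0.51, adjusted p = 0.00756). JUN, the partner of FOS proteins in AP-1, had 234, 284 and 254 CPM in GLY and 116, 118 and 38.9 CPM in untreated libraries, with no overlap (log2 fold change 1.50, SE 0.43, adjusted p = 0.00814; TMM 2.58). In GLY_PUE libraries it had 289.6, 285 and 239 CPM, against 118, 117 and 40.0 CPM in PUE libraries (log2 fold change 1.56, SE 0.44, adjusted p = 0.00711). FOSB, a FOS protein of the immediate early response, showed 65.0, 61.3 and 30.1 CPM in GLY and 30.7, 32.7 and 7.79 CPM in untreated libraries. Its groups overlapped, since GLY replicate 3 was below untreated replicates 1 and 2, and it did not pass the test (log2 fold change 1.13, SE 0.57, adjusted p = 0.0763). FOSB also missed the threshold in GLY_PUE against PUE (log2 fold change 1.24, SE 0.57, adjusted p = 0.0601), where a fit with replicate number as a block gave 1.42 and an adjusted p of 0.000914. Under TMM FOSB was higher, at 2.27 (adjusted p = 0.0183) for GLY against untreated. Over all 4 groups, with group means kept, the libraries numbered 3 had a log2 difference from numbers 1 and 2 of −1.44 for FOSB, −1.11 for FOSL1 and −0.80 for JUN, although JUN in GLY replicate 3 lay between the other two GLY libraries.

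The small MAF members MAFK and MAFF were higher in both comparisons, beside 19.7% and 20.6% of all genes tested. MAFK had 147, 129 and 139 CPM in GLY libraries, against 46.1, 50.2 and 35.2 CPM in untreated libraries (log2 fold change 1.65, SE 0.21, adjusted p = 8.54e-05; TMM 2.80). MAFF, which has TGACGTCA in the window printed above, had 139, 112 and 105 CPM in GLY and 41.6, 44.1 and 26.8 CPM in untreated libraries (log2 fold change 1.66, SE 0.27, adjusted p = 0.000346; TMM 2.81). Neither gene's groups overlapped, and the values in GLY_PUE against PUE were 1.59 (SE 0.21, adjusted p = 0.000122) for MAFK and 1.69 (SE 0.27, adjusted p = 0.000327) for MAFF. EGR1, an immediate early zinc finger factor with the CArG boxes shown above, had 248, 452 and 511 CPM in GLY and 248, 294 and 167 CPM in untreated libraries. GLY replicate 1 lay within the untreated range, and EGR1 passed the test narrowly (log2 fold change 0.78, SE 0.31, adjusted p = 0.0319; TMM 1.84). The call was lost on leaving out untreated replicate 1 (0.81, adjusted p = 0.0586), untreated replicate 3 (0.58, adjusted p = 0.118), GLY replicate 2 (0.69, adjusted p = 0.0870) or GLY replicate 3 (0.57, adjusted p = 0.120). With PUE present the EGR1 groups did not overlap, with 486, 542 and 551 CPM against 276, 278 and 170.0 CPM (log2 fold change 1.12, SE 0.31, adjusted p = 0.00647). ATF7IP, the partner protein of ATF7, was lower at 21.3, 38.4 and 38.6 CPM in GLY against 100.5, 93.9 and 82.9 CPM in untreated libraries (log2 fold change −1.49, SE 0.25, adjusted p = 0.000402), and under TMM its value was −0.40 (adjusted p = 0.234).

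**Figure D2:**
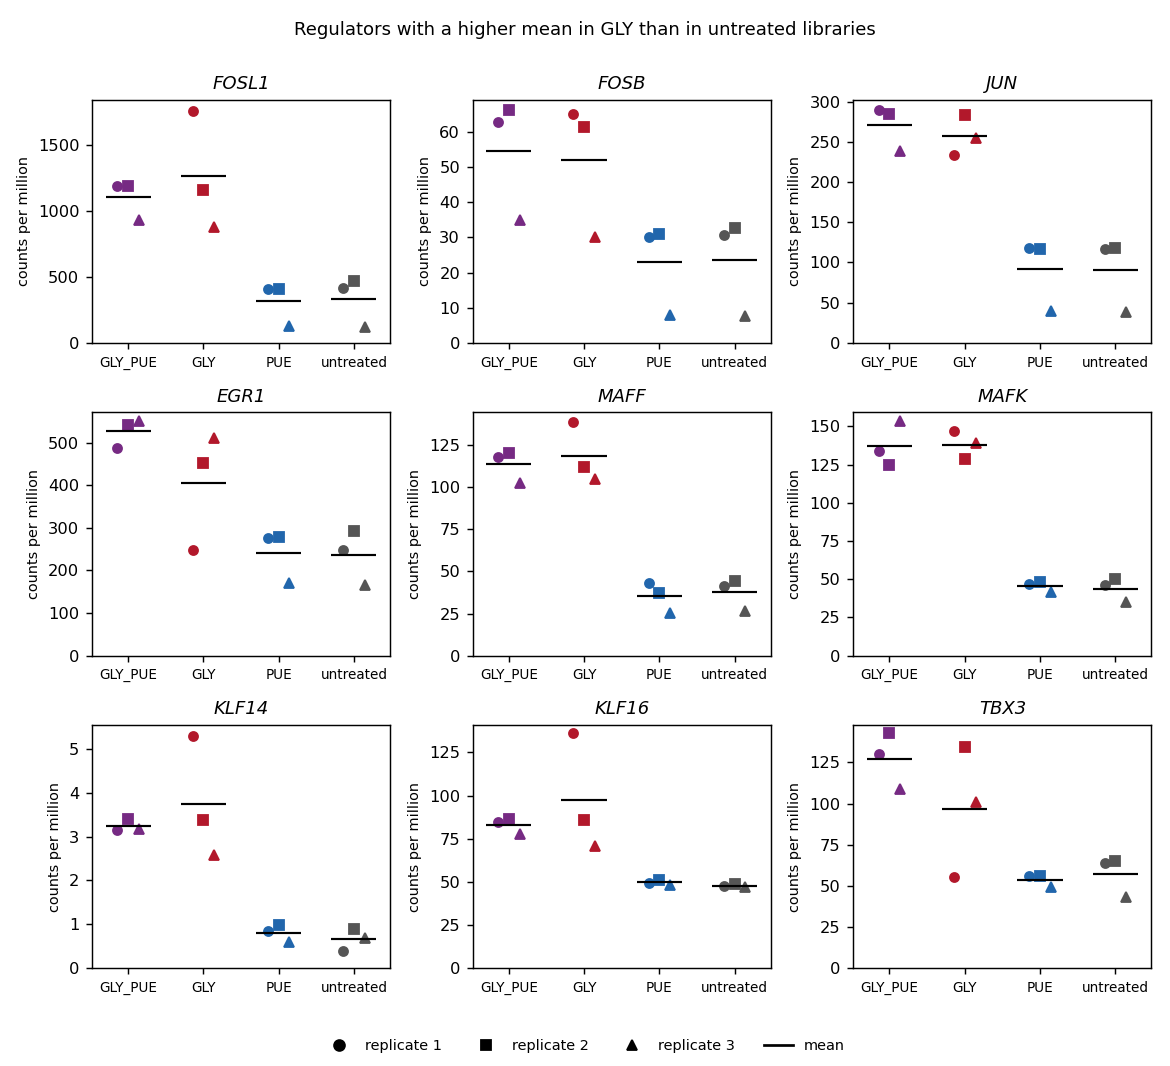
CPM in each library (points; shape marks the replicate number) and group means (bars) of 9 members with a higher mean in GLY than in untreated libraries. FOSL1, FOSB and JUN sit lower in replicate 3 of the PUE and untreated groups, and EGR1 and TBX3 in GLY replicate 1 lie within the untreated range; FOSB did not pass the test with library totals.

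Of 35 other bZIP genes on a list fixed for this report, 15 were in the table, and with GLY 7 were higher and 8 lower against untreated, beside 19.7% and 64.6% of all genes tested (7 higher and 2 lower under TMM). The higher ones were CREB5 at 4.78 (SE 0.59, adjusted p = 7.49e-05), DDIT3 (the stress factor CHOP) at 1.98 (SE 0.39, adjusted p = 0.00109), NFIL3 at 1.70 (SE 0.25, adjusted p = 0.000179), BATF3 at 1.60 (SE 0.36, adjusted p = 0.002), CEBPB at 1.46 (SE 0.22, adjusted p = 0.00021), XBP1 (a factor of the unfolded protein response) at 1.05 (SE 0.24, adjusted p = 0.00239) and CEBPG at 0.97 (SE 0.25, adjusted p = 0.00467). DDIT3 averaged 355 ± 81.2 CPM in GLY and 89.8 ± 36.4 CPM in untreated libraries (SD, n = 3 each), and CEBPB 339 ± 15.0 CPM and 124 ± 25.1 CPM in the same order of groups. The lower ones included NFE2 at −3.95 (SE 0.68, adjusted p = 0.000473), MAF at −2.89 (SE 0.76, adjusted p = 0.00499) and DBP at −2.18 (SE 0.38, adjusted p = 0.000508). For GLY_PUE against PUE 6 were higher and 8 lower, beside 20.6% and 57.3% of all genes (7 and 3 under TMM). BATF3 did not pass the test there, at 0.71 (SE 0.35, adjusted p = 0.0783). The large MAF gene MAF thus had a log2 fold change of the opposite sign to the small MAF genes MAFF and MAFK.

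The 3 KLF members, a set without KLF6, encode zinc finger factors of GC-rich sites and did not move together. KLF14, an imprinted gene without introns, had 5.29, 3.37 and 2.58 CPM in GLY and 0.395, 0.896 and 0.690 CPM in untreated libraries (log2 fold change 2.49, SE 0.38, adjusted p = 0.000231; TMM 3.71). Its untreated values rest on at most 18 reads per library, and its groups did not overlap. KLF16 had 136, 85.7 and 70.9 CPM in GLY and 47.4, 49.1 and 47.0 CPM in untreated libraries (log2 fold change 1.03, SE 0.24, adjusted p = 0.00282), with the highest value in GLY replicate 1. KLF12, a repressor, was lower at 2.98, 7.82 and 8.16 CPM in GLY against 30.8, 30.5 and 35.6 CPM in untreated libraries (log2 fold change −2.35, SE 0.34, adjusted p = 0.000165; TMM −1.27). With PUE present the values were 1.98 (SE 0.37, adjusted p = 0.000805) for KLF14, 0.74 (SE 0.24, adjusted p = 0.0159) for KLF16 and −1.74 (SE 0.33, adjusted p = 0.000871) for KLF12, and KLF12 missed the threshold under TMM at −0.73 (adjusted p = 0.0533). Of the related SP factors, 3 of 9 were in the table. With GLY against untreated 2 were lower, beside 64.6% of all genes tested (1 under TMM). SP5, a known Wnt target, averaged 10.5 ± 4.48 CPM in GLY and 141 ± 16.0 CPM in untreated libraries (SD, n = 3 each), a log2 fold change of −3.74 (SE 0.32, adjusted p = 1.4e-05). SP9 stood at −1.94 (SE 0.41, adjusted p = 0.00147), and SP4 did not pass, with 10.0 ± 6.30 CPM in GLY and 20.1 ± 5.54 CPM in untreated libraries (adjusted p = 0.0519). The cofactor list for GATA and EGR proteins held 4 genes, of which 1 was in the table. That gene was lower with GLY against untreated, beside 64.6% of all genes tested (not called under TMM).

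Of the 4 T-box genes 3 were lower and 1 higher with GLY against untreated, beside 64.6% and 19.7% of all genes tested, and under TMM 0 were called lower and 1 higher. TBX3, a repressor with roles in proliferation and limb and breast development, was chosen after its values were seen. It had 55.3, 135 and 101 CPM in GLY and 63.6, 65.1 and 43.4 CPM in untreated libraries, with GLY replicate 1 within the untreated range (log2 fold change 0.76, SE 0.30, adjusted p = 0.0327). Leaving out GLY replicate 2 gave 0.45 (adjusted p = 0.177), and the call was also lost without GLY replicate 3 (0.73, adjusted p = 0.0663) and without untreated replicate 3 (0.59, adjusted p = 0.116). In GLY_PUE libraries TBX3 had 130.2, 143 and 109 CPM, against 55.8, 56.1 and 49.3 CPM in PUE libraries, with no overlap (log2 fold change 1.24, SE 0.30, adjusted p = 0.00353). TBX18 had 3.59, 11.3 and 11.1 CPM in GLY and 21.6, 21.2 and 19.7 CPM in untreated libraries (log2 fold change −1.27, SE 0.34, adjusted p = 0.00585). TBX18 in GLY_PUE against PUE stood at −0.90 (SE 0.34, adjusted p = 0.0288), a call that was lost on leaving out any of 5 of the 6 libraries compared (−0.86 to −0.95), while TMM turned its sign to 0.10 and RLE, another scaling within the table, to 0.078. TBX1 and TBX6 were both under 1 CPM in every library, at −1.60 (SE 0.50, adjusted p = 0.0112) and −1.39 (SE 0.45, adjusted p = 0.0133). TBX6 missed the threshold without GLY replicate 3 (−1.15, adjusted p = 0.0516), and TBX1 moved to −2.22 without GLY replicate 1. The TBX1 call in GLY_PUE against PUE, −1.24 (SE 0.49, adjusted p = 0.0359), was lost without several single libraries, untreated ones among them. Of 5 other T-box genes, 2 were in the table. Both were lower with GLY against untreated, beside 64.6% of all genes tested (2 under TMM). TBXT stood at −2.34 (SE 0.35, adjusted p = 0.000205) and EOMES at −2.04 (SE 0.35, adjusted p = 0.000468).

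Among 10 SOX genes 9 were lower and 1 higher with GLY against untreated, beside 64.6% and 19.7% of all genes tested (2 lower and 1 higher under TMM, where SOX18 turned sign without being called). SOX4, a factor active in many tumours, had 6.85, 11.1 and 8.12 CPM in GLY and 38.4, 44.2 and 54.3 CPM in untreated libraries (log2 fold change −2.39, SE 0.27, adjusted p = 4.4e-05; TMM −1.25 (adjusted p = 0.000437)). SOX12, of the same SOXC group, had 25.6, 17.8 and 18.9 CPM in GLY and 52.0, 56.9 and 86.2 CPM in untreated libraries (log2 fold change −1.65, SE 0.31, adjusted p = 0.000706), and under TMM it missed the threshold at −0.43 (adjusted p = 0.318). SOX14, a repressor of the nervous system, had 0.0945, 0.140 and 0.281 CPM in GLY libraries, at or near the level that a count of 0 allows (0.152 CPM, 3 counts), and 1.43, 1.59 and 2.66 CPM in untreated libraries (log2 fold change −3.42, SE 0.48, adjusted p = 0.000154; TMM −2.29). The groups did not overlap for any of these 3 genes. SOX9, a marker of intestinal stem and progenitor cells, SOX2, a pluripotency factor, and SOX1, of the same group as SOX2, were chosen after their values were seen. SOX9 had 49.1, 171 and 73.4 CPM in GLY and 187, 218 and 237 CPM in untreated libraries, where GLY replicate 2 stood well above the other two GLY libraries (log2 fold change −1.13, SE 0.41, adjusted p = 0.0237). The SOX9 call was lost without GLY replicate 1 (−0.81, adjusted p = 0.0724), without GLY replicate 3 (−0.96, adjusted p = 0.0794) and without untreated replicate 3 (−1.05, adjusted p = 0.0596), and without GLY replicate 2 the value was −1.80. With PUE present SOX9 had 146, 179 and 74.2 CPM in GLY_PUE and 208, 212 and 236 CPM in PUE libraries and did not pass the test (log2 fold change −0.72, SE 0.41, adjusted p = 0.118), and under TMM its value there was 0.33. SOX2 had 0.331, 1.09 and 0.751 CPM in GLY and 2.91, 2.53 and 3.85 CPM in untreated libraries (log2 fold change −2.10, SE 0.43, adjusted p = 0.00124). SOX1 stood at −1.36 (SE 0.44, adjusted p = 0.0142), and without untreated replicate 3 the value was −0.82 (adjusted p = 0.0930). For GLY against untreated under TMM, SOX9 stood at −0.02 (adjusted p = 0.99), SOX2 at −0.99 (adjusted p = 0.0559) and SOX1 at −0.22 (adjusted p = 0.762).

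SOX7, a SOXF factor of endothelium that also restrains Wnt signalling, was the one SOX gene that rose, with 0.777, 1.86 and 1.19 CPM in GLY and 0.391, 0.715 and 0.708 CPM in untreated libraries (log2 fold change 1.09, SE 0.39, adjusted p = 0.0206; TMM 2.20). Its call was lost without GLY replicate 2 (0.69, adjusted p = 0.116) and without untreated replicate 1 (0.86, adjusted p = 0.0786). SOX7 shares exon positions with PINX1 on the same strand, so reads could be split between them. Its value in GLY_PUE against PUE was 0.68 (SE 0.37, adjusted p = 0.103), and with a replicate block at 0.68 with an adjusted p of 0.0480. SOX15, also chosen after its values were seen, stood at −1.29 (SE 0.48, adjusted p = 0.0264), lost on leaving out any GLY library other than replicate 1, or untreated replicate 1 or 2. With PUE present 7 SOX genes were lower and 0 higher, beside 57.3% and 20.6% of all genes (4 and 1 under TMM). Of 6 other genes with an HMG box, the TCF and LEF partners of beta-catenin among them, 3 were in the table. All 3 were lower with GLY against untreated, beside 64.6% of all genes tested (0 under TMM). LEF1 stood at −1.59 (SE 0.24, adjusted p = 0.000207), TCF7L1 at −1.14 (SE 0.26, adjusted p = 0.00206) and TCF7L2 at −1.06 (SE 0.38, adjusted p = 0.022). TCF7L2 did not pass in GLY_PUE against PUE, at −0.56 (SE 0.38, adjusted p = 0.173).

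Of the 13 FOX symbols 11 were lower and none passed as higher with GLY against untreated, beside 64.6% and 19.7% of all genes (3 lower and 1 higher under TMM, where FOXM1, FOXD3 and FOXO1 turned sign without being called). FOXQ1, a known Wnt target in colorectal tumours, had 43.4, 51.9 and 57.0 CPM in GLY and 178, 196 and 275 CPM in untreated libraries (log2 fold change −2.09, SE 0.25, adjusted p = 6.24e-05; TMM −0.93 (adjusted p = 0.00164)). FOXO4, a factor held out of the nucleus by AKT, had 2.22, 1.87 and 1.83 CPM in GLY and 6.57, 7.46 and 12.2 CPM in untreated libraries (log2 fold change −2.15, SE 0.33, adjusted p = 0.000245; TMM −0.95 (adjusted p = 0.0184)). The oxidoreductase gene FOXRED2 had 23.3, 26.7 and 30.8 CPM in GLY and 66.8, 70.6 and 93.9 CPM in untreated libraries (log2 fold change −1.52, SE 0.24, adjusted p = 0.000307), and under TMM it missed the threshold at −0.37 (adjusted p = 0.165). Groups did not overlap in these 3 genes. FOXM1, FOXA2, FOXN3 and FOXO1 were chosen after their values were seen. FOXM1, a driver of the G2 and mitotic programme, had 149, 139.9 and 164 CPM in GLY and 305, 312 and 358 CPM in untreated libraries, at −1.11 (SE 0.19, adjusted p = 0.000477) with library totals and 0.05 under TMM. It shares positions with ITFG2 on the opposite strand. FOXA2, a pioneer factor of gut endoderm, had 2.83, 2.57 and 3.19 CPM in GLY and 7.21, 7.16 and 19.5 CPM in untreated libraries (log2 fold change −1.97, SE 0.50, adjusted p = 0.00413), and without untreated replicate 3 the value was −1.32. FOXN3, a repressor of the cell cycle, stood at −1.89 (SE 0.35, adjusted p = 0.000667). Under TMM FOXA2 missed the threshold at −0.76 (adjusted p = 0.211), and FOXN3 stayed lower at −0.75 (adjusted p = 0.0376). FOXO1, a target of insulin and AKT signalling, had 2.27, 11.0 and 10.1 CPM in GLY and 13.5, 13.7 and 19.8 CPM in untreated libraries and passed narrowly at −1.01 (SE 0.44, adjusted p = 0.0455). That call was lost without any single untreated or GLY_PUE library and without PUE replicate 1 or 2, with a value of −0.81 without untreated replicate 3, and TMM turned its sign.

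FOXC2, a mesenchymal forkhead factor, passed in one comparison and not in the other. It had 0.284, 0.707 and 0.623 CPM in GLY and 0.654, 0.303 and 0.355 CPM in untreated libraries, where the groups overlapped (log2 fold change 0.31, SE 0.48, adjusted p = 0.538; under TMM 1.39, adjusted p = 0.0268). In GLY_PUE libraries it had 0.762, 1.21 and 1.16 CPM, against 0.248, 0.493 and 0.405 CPM in PUE libraries, with no overlap (log2 fold change 1.45, SE 0.47, adjusted p = 0.0144). The call was lost without PUE replicate 1 (1.22, adjusted p = 0.0585) and without GLY_PUE replicate 2 (adjusted p = 0.0516). FOXC2 shares positions with its antisense gene FOXC2-AS1, and its counts were low, at 5 to 26 reads per library. In GLY_PUE against PUE 11 FOX symbols were lower and 1, FOXC2, higher, beside 57.3% and 20.6% of all genes (3 and 1 under TMM).

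All 6 ETV and ELF genes, which encode ETS factors, were lower with GLY in both comparisons, beside 64.6% and 57.3% of all genes (2 in each under TMM, where ETV4 and ELF3 turned sign for GLY against untreated without being called). ETV6, a repressor that needs self-association, had 5.68, 4.53 and 6.07 CPM in GLY and 29.2, 34.4 and 44.5 CPM in untreated libraries (log2 fold change −2.73, SE 0.26, adjusted p = 1.64e-05; TMM −1.56 (adjusted p = 0.000102)). ETV1, a factor downstream of receptor tyrosine kinases, had 0.614, 1.50 and 3.10 CPM in GLY and 15.0, 14.0 and 47.7 CPM in untreated libraries (log2 fold change −3.88, SE 0.68, adjusted p = 0.000514; TMM −2.73 (adjusted p = 0.00131)). Its untreated replicate 3 was above the other two, as was PUE replicate 3 at the end of 16.3, 15.2 and 45.6 CPM. Without untreated replicate 3 the ETV1 value was −3.06 and without GLY replicate 3 it was −4.59. ETV3, a repressor, had 16.1, 63.0 and 58.6 CPM in GLY and 145, 148 and 141 CPM in untreated libraries, with GLY replicate 1 the lowest (log2 fold change −1.65, SE 0.39, adjusted p = 0.00261), and under TMM it missed the threshold at −0.60 (adjusted p = 0.238). The ETV3 value in GLY_PUE against PUE was −1.16 (SE 0.38, adjusted p = 0.0159), lost without GLY_PUE replicate 3 (−1.04, adjusted p = 0.0555). Of 13 other ETS genes 3 were in the table and 2 were tested: ETS1 was higher at 1.15 (SE 0.34, adjusted p = 0.00926) (also under TMM), and EHF, an epithelial factor, lower at −1.52 (SE 0.40, adjusted p = 0.00495) (not called under TMM).

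Both E2F members, a set without E2F2, were lower with GLY against untreated, beside 64.6% of all genes tested (1 under TMM). E2F1, an activator of S phase genes whose window above holds 4 matches to the E2F letters, had 41.4, 25.4 and 25.2 CPM in GLY and 72.2, 79.8 and 87.2 CPM in untreated libraries (log2 fold change −1.38, SE 0.25, adjusted p = 0.000632), and under TMM its value was −0.16 (adjusted p = 0.8). E2F8, an atypical repressor of the late cell cycle, had 2.15, 7.91 and 7.65 CPM in GLY and 31.3, 31.7 and 33.0 CPM in untreated libraries (log2 fold change −2.44, SE 0.40, adjusted p = 0.000349; TMM −1.37 (adjusted p = 0.00374)). With PUE present the values were −1.58 (SE 0.25, adjusted p = 0.000325) for E2F1 and −2.03 (SE 0.39, adjusted p = 0.000931) for E2F8. Of 11 partners of E2F proteins 6 were in the table, and 5 were lower with GLY, beside 64.6% of all genes (1 under TMM), among them the dimer partner TFDP1 at −1.87 (SE 0.33, adjusted p = 0.000496) and the pocket protein RBL1 at −1.74 (SE 0.36, adjusted p = 0.00129). RB1 did not pass, at −1.18 (SE 0.55, adjusted p = 0.0597). In GLY_PUE against PUE 2 of the 6 were lower, beside 57.3% of all genes (0 under TMM). They were TFDP1 at −1.60 (SE 0.32, adjusted p = 0.00123) and RBL1 at −1.51 (SE 0.36, adjusted p = 0.00292).

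The 3 interferon regulatory factor genes were lower with GLY in both comparisons, beside 64.6% and 57.3% of all genes (1 under TMM). IRF2, a repressor of interferon genes, had 4.49, 7.77 and 8.02 CPM in GLY and 25.0, 21.6 and 32.7 CPM in untreated libraries (log2 fold change −1.97, SE 0.27, adjusted p = 0.000142; TMM −0.84 (adjusted p = 0.0035)). IRF9, the DNA-binding part of the type I interferon complex, had 2.31, 1.87 and 1.88 CPM in GLY and 5.14, 5.72 and 5.52 CPM in untreated libraries (log2 fold change −1.43, SE 0.26, adjusted p = 0.00068), and under TMM its value was −0.26 (adjusted p = 0.601). IRF8, a factor of myeloid cells, had 0.0945, 0.375 and 0.0938 CPM in GLY libraries, 2 of them under the limit of a 0 count, and 0.642, 0.697 and 0.591 CPM in untreated libraries (log2 fold change −1.74, SE 0.60, adjusted p = 0.0173). Without GLY replicate 1 it stood at −1.43 (adjusted p = 0.0588) and without GLY replicate 3 at −1.43 (adjusted p = 0.0634), while without GLY replicate 2 the value was −2.70. In GLY_PUE against PUE, where IRF8 stood at −1.54 (SE 0.56, adjusted p = 0.0245), the call was lost without PUE replicate 3 (−1.11, adjusted p = 0.117) and without GLY_PUE replicate 1 or 2.

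**Figure D3:**
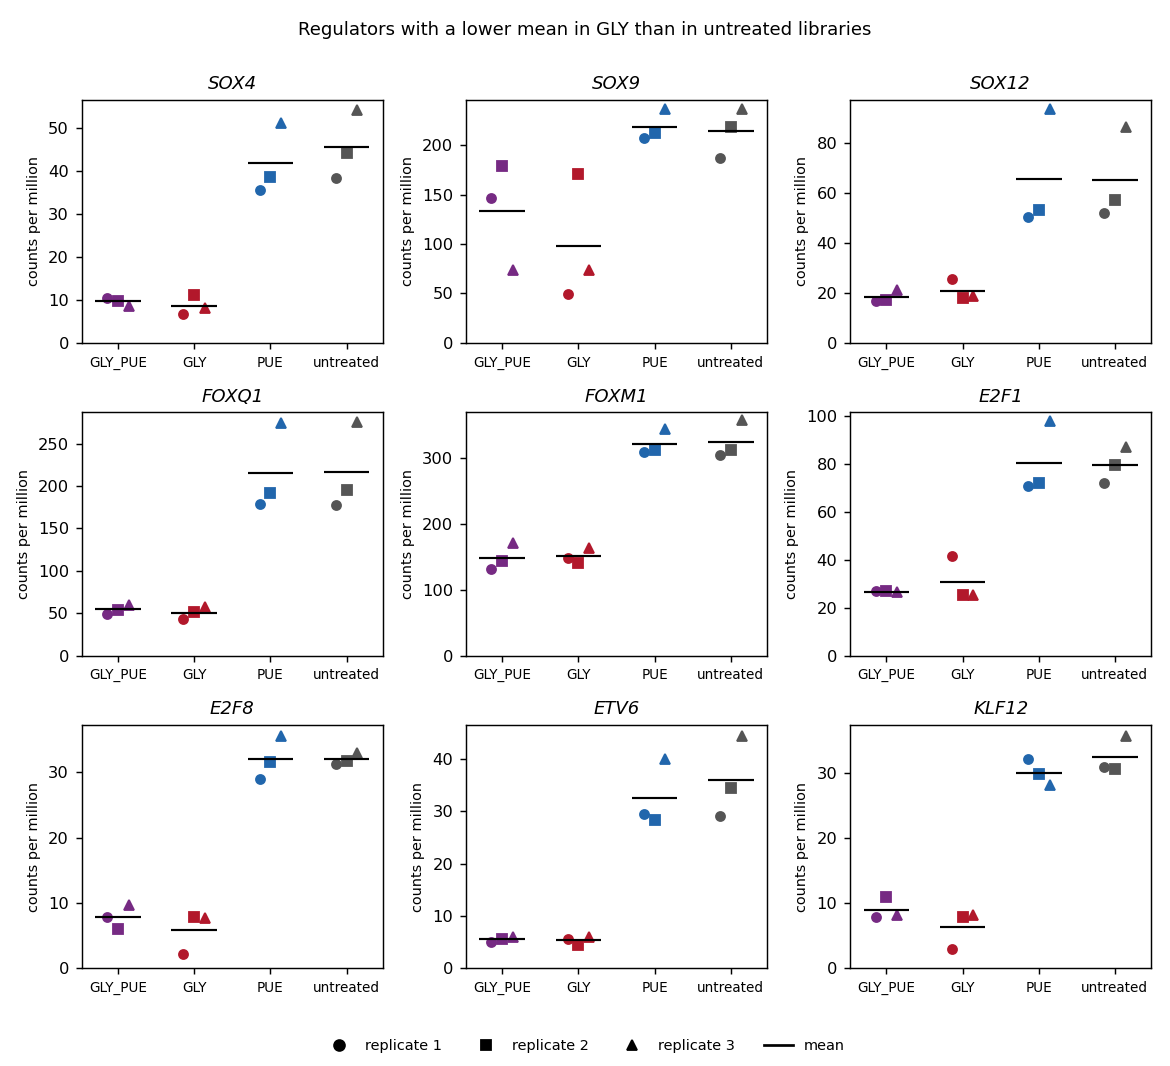
CPM in each library (points; shape marks the replicate number) and group means (bars) of 9 members with a lower mean in GLY than in untreated libraries. SOX9 in GLY libraries has replicate 2 above replicates 1 and 3, while FOXQ1 and SOX12 are highest in replicate 3 of the untreated and PUE groups.

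HOX genes, the largest family here with 25 members, were lower in all 4 clusters, though in HOXD for 1 gene only. With GLY against untreated all 10 HOXA, all 5 HOXB, all 7 HOXC and 1 of 3 HOXD genes were lower, beside 64.6% of all genes tested. Under TMM 5, 1, 2 and 0 were lower and 1 HOXD gene was higher, with HOXA9, HOXB6, HOXC10, HOXC11, HOXC13 and HOXD11 turning sign without being called. Summed over the 10 HOXA genes the FPKM was 41.5 ± 11.8 in GLY and 120 ± 38.0 in untreated libraries (SD, n = 3 each). The HOXB sum was 42.3 ± 18.9 in GLY and 132 ± 6.45 in untreated libraries, the HOXC sum 18.0 ± 5.12 and 52.0 ± 5.62, and the HOXD sum 3.65 ± 0.991 and 6.14 ± 1.24. The groups did not overlap for any of these sums, narrowly so for HOXD, with 4.73, 3.45 and 2.78 in GLY against 6.38, 7.25 and 4.80 in untreated libraries. The highest HOX gene in GLY libraries was HOXA9 at 21.9 ± 9.83 FPKM, and in untreated libraries HOXB8 at 51.4 ± 4.30 FPKM. Neither stood apart from the next gene beyond its spread, HOXB6 at 16.2 ± 6.96 FPKM in GLY and HOXA9 at 43.4 ± 16.9 FPKM in untreated libraries.

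HOXC6 had 4.17, 3.32 and 3.94 CPM in GLY and 18.8, 19.1 and 23.7 CPM in untreated libraries (log2 fold change −2.43, SE 0.23, adjusted p = 1.84e-05; TMM −1.26 (adjusted p = 0.000425)). It shares exons with HOXC4, HOXC5 and HOXC9, so these genes are not independent measurements. HOXB13, the most posterior HOXB gene and a marker of distal colon and prostate, had 1.51, 1.83 and 1.74 CPM in GLY and 7.06, 7.31 and 10.1 CPM in untreated libraries (log2 fold change −2.27, SE 0.27, adjusted p = 5.28e-05; TMM −1.11 (adjusted p = 0.00129)). HOXA7 had 10.4, 10.2 and 8.44 CPM in GLY and 45.1, 46.8 and 80.5 CPM in untreated libraries (log2 fold change −2.57, SE 0.30, adjusted p = 5.46e-05; TMM −1.36 (adjusted p = 0.000884)), and it overlaps HOXA-AS3 on the opposite strand. Groups did not overlap for these 3, and in GLY_PUE against PUE the values were −2.30 (SE 0.23, adjusted p = 2.94e-05), −2.20 (SE 0.27, adjusted p = 7.21e-05) and −2.64 (SE 0.31, adjusted p = 5.76e-05) in that order. That comparison gave 23 HOX genes lower and 1 higher, beside 57.3% and 20.6% of all genes (10 and 1 under TMM).

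Other HOX genes were chosen after their values were seen. HOXB8 had 30.2, 21.5 and 8.43 CPM in GLY and 94.3, 109 and 98.4 CPM in untreated libraries (log2 fold change −2.33, SE 0.39, adjusted p = 0.000402). Under TMM HOXB8 missed the threshold at −1.10 (adjusted p = 0.0791). HOXA6 had the lowest value of the HOX genes at −2.90 (SE 0.59, adjusted p = 0.00122), with 0.0472, 0.234 and 0.422 CPM in GLY and 1.68, 1.39 and 2.31 CPM in untreated libraries, and it stood at −3.62 without GLY replicate 3. HOXA9 had 26.0, 41.2 and 65.4 CPM in GLY and 68.9, 66.9 and 127 CPM in untreated libraries (log2 fold change −0.99, SE 0.38, adjusted p = 0.0298). It lost its call without untreated replicate 3 (−0.62, adjusted p = 0.155), without GLY replicate 1 (−0.72, adjusted p = 0.0905) and without GLY replicate 2 (−0.94, adjusted p = 0.0771), and its libraries numbered 3 were higher by 0.82. HOXA9 in GLY_PUE against PUE stood at −0.87 (SE 0.38, adjusted p = 0.0508), and with a replicate block at −0.86 with an adjusted p of 0.00261. HOXA13, the most posterior HOXA gene, stood at −1.69 (SE 0.58, adjusted p = 0.0172), and the call was lost without untreated replicate 3 (−1.37, adjusted p = 0.0645). Its GLY replicate 1 held 3 counts, and without GLY replicate 3 the value was −2.35. Of the HOXD genes HOXD10 was lower at −1.96 (SE 0.30, adjusted p = 0.000231), and under TMM it missed the threshold at −0.83 (adjusted p = 0.0759). HOXD11 did not pass at −0.71 (SE 0.34, adjusted p = 0.0643). HOXD4 did not pass at 0.99 (SE 0.50, adjusted p = 0.0785), though under TMM it was higher at 2.15 (adjusted p = 0.00441). HOXD11 in GLY_PUE against PUE stood at −1.03 (SE 0.34, adjusted p = 0.0162), a call lost without PUE replicate 1 or GLY_PUE replicate 3, and HOXD4 at 1.52 (SE 0.49, adjusted p = 0.015). HOXD4 had 1.36, 1.65 and 5.30 CPM in GLY_PUE and 0.796, 1.28 and 0.813 CPM in PUE libraries, and without GLY_PUE replicate 3 the value was 0.64 (adjusted p = 0.134).

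**Figure D4:**
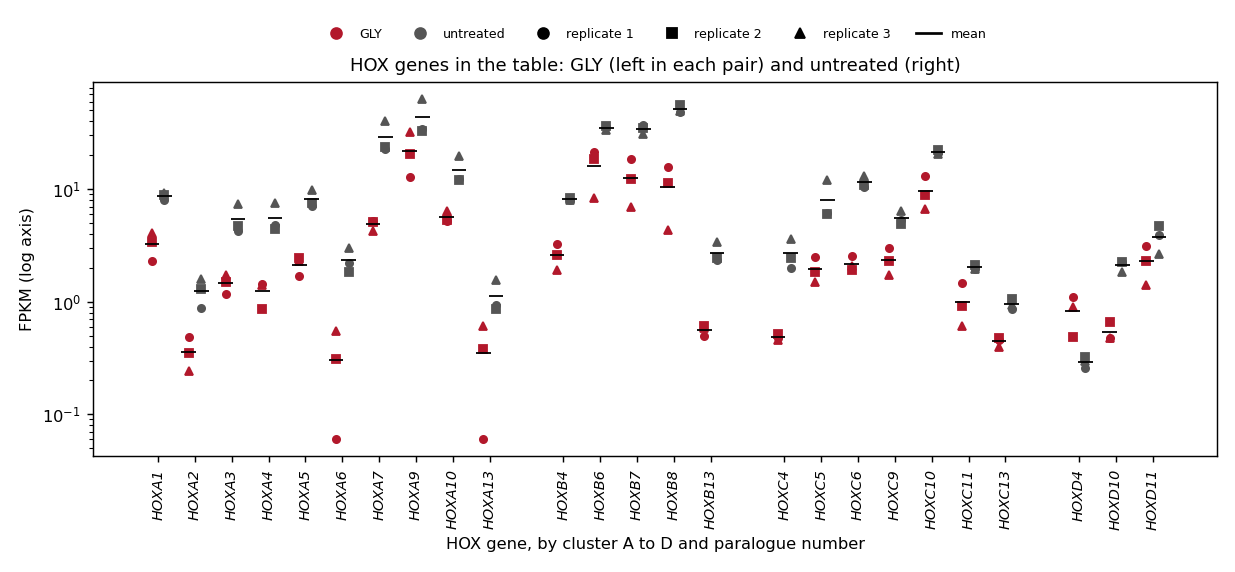
FPKM (log axis) of the 25 HOX genes in GLY (red, left in each pair) and untreated libraries (grey, right), with means as bars and the shape of a point marking the replicate number. GLY values lie under the untreated ones in most HOXA, HOXB and HOXC genes, while HOXD4 lies above; HOXA6 and HOXA13 each have 1 GLY library far below the others.

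Of 9 genes for TALE homeodomain partners of HOX proteins 5 were in the table, and all 5 were lower with GLY against untreated, beside 64.6% of all genes tested (0 under TMM): MEIS2 at −1.73 (SE 0.32, adjusted p = 0.0007), MEIS1 at −1.47 (SE 0.40, adjusted p = 0.00592), PKNOX2 at −1.42 (SE 0.41, adjusted p = 0.008), PBX3 at −1.19 (SE 0.30, adjusted p = 0.0038) and PBX2 at −0.87 (SE 0.23, adjusted p = 0.00514). In GLY_PUE against PUE 4 of the 5 were lower, beside 57.3% of all genes (0 under TMM). Of 12 further transcription factors of intestinal cells 4 were in the table and 3 were tested. All 3 were lower with GLY against untreated, beside 64.6% of all genes tested (2 under TMM). CDX2, which specifies intestinal identity and acts on HOX genes, averaged 13.3 ± 4.75 CPM in GLY and 72.3 ± 10.7 CPM in untreated libraries, at −2.44 (SE 0.28, adjusted p = 5.28e-05). ASCL2, a stem cell factor and Wnt target, stood at −2.64 (SE 0.30, adjusted p = 4.88e-05).

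GLY against untreated and GLY_PUE against PUE share no library. The sign of the fold change was the same in 73 of 73 members, beside 98.5% of all genes tested. In both comparisons 55 members were called lower and 8 higher, 1 was called in neither (FOSB), 5 passed for GLY against untreated only (FOXO1, HOXA9, SOX7, SOX9 and SOX15) and 4 for GLY_PUE against PUE only (FOXC2, FOXD3, HOXD4 and HOXD11). Over all 3429 genes tested, 1834 were called lower and 617 higher in both, and 323 in neither. Another 437 passed for GLY against untreated only and 216 for GLY_PUE against PUE only. A call in one comparison alone is not a difference between them: in the test of the difference itself no member passed. The 8 members higher in both were FOSL1, JUN, MAFF, MAFK, EGR1, KLF14, KLF16 and TBX3. GLY_PUE against untreated, which shares libraries with both, gave 55 members lower and 11 higher, beside 57.1% and 20.2% of all genes (77.3% in either direction). Under TMM it gave 21 lower and 12 higher members, beside 394 and 817 of all genes. Groups did not overlap in 61 lower and 12 higher members there, beside 65.4% and 21.8% of all genes (87.3% in either direction). There a replicate block added FOSB (1.40, adjusted p = 0.00104), HOXA9 (−0.81, adjusted p = 0.00368), SOX15 (−1.09, adjusted p = 0.0240) and SOX30 (−0.88, adjusted p = 0.0377).

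**Figure D5:**
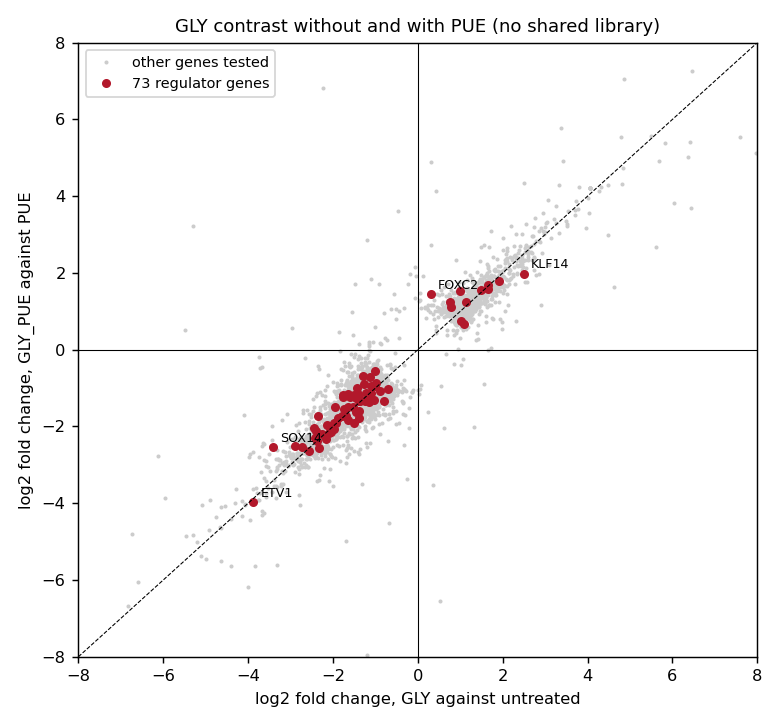
Log2 fold change of each gene for GLY against untreated (horizontal) and GLY_PUE against PUE (vertical), with the 73 members in red, other genes tested in grey and equality as a dashed line; 4 genes lie beyond the axis limits of 8. All 73 members fall in the lower left or upper right quadrant, and FOXC2 lies farthest above the line among members near 0.

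PUE alone changed no member at this threshold. Against untreated 0 of 73 members passed, and 0 had an unadjusted p under 0.05, in edgeR, DESeq2 and limma-voom alike, beside 0% of all genes called by edgeR and 12 of 3429 genes with an unadjusted p under 0.05 (4 by DESeq2 and 14 by limma-voom). With a replicate block 0 members and 0 of 3429 genes passed, and 0 members and 19 genes had an unadjusted p under 0.05. Without the block the members' log2 fold changes ran from −0.54 to 0.59. The smallest p-values belonged to SOX7 at 0.59 (95% interval −0.26 to 1.44), SOX14 at −0.54 (95% interval −1.40 to 0.32) and TBX6 at −0.52 (95% interval −1.44 to 0.40), all with an adjusted p of 1. SOX7 had 0.841, 0.956 and 0.937 CPM in PUE libraries, all above 0.391, 0.715 and 0.708 CPM in the untreated ones. For 54 of 73 members the 95% interval lay within 1 log2 unit of 0, and for the other 19 it reached beyond a 2-fold difference. Groups did not overlap in 1 higher and 1 lower member, beside 1.63% and 1.66% of all genes (3.3% in either direction).

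Adding PUE to GLY likewise gave no called member. In GLY_PUE against GLY 0 of 73 passed in edgeR, DESeq2 and limma-voom, beside 0% of all genes in edgeR, and 2 members and 57 of 3429 genes had an unadjusted p under 0.05 (2 members by DESeq2 and 1 by limma-voom). FOXC2 had a log2 fold change of 0.98 (95% interval 0.00 to 1.95), with 0.762, 1.21 and 1.16 CPM in GLY_PUE and 0.284, 0.707 and 0.623 CPM in GLY libraries. IRF9 stood at 0.56 (95% interval −0.01 to 1.13). The adjusted p was 0.959 for both. The interval lay within 1 log2 unit of 0 for 40 of 73 members, and groups did not overlap in 4 higher and 0 lower members, beside 3.21% and 1.6% of all genes (4.81% in either direction).

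The test of whether the GLY difference depends on PUE (GLY_PUE minus PUE, less GLY minus untreated) passed for 0 of 73 members and 0% of all genes, with 0 members and 33 genes at an unadjusted p under 0.05. The 3 smallest p-values were those of FOXC2 at 1.14 (95% interval −0.31 to 2.58), KLF12 at 0.61 (95% interval −0.37 to 1.60) and SOX14 at 0.88 (95% interval −0.60 to 2.37), with an adjusted p of 0.999. The interval lay within 1 log2 unit of 0 in 22 of 73 members. For the other 51 it reached beyond a 2-fold difference.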

How the data were processed

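RNA was sequenced from 12 SW480 libraries on the BGISEQ-500 platform, per the labels' protocols. The authors deposited 1 table with 3699 rows of genes. Its columns, per the file headers, give each library's read counts (estimated counts, not normalized, 58.2% of them whole numbers within 1e-09) and an expression value with no stated unit, which in the deposited numbers follows FPKM. Other deposited columns, per the file headers, give log2 ratios of group pairs with p-values and q-values. The submitters' processing notes name TopHat and DESeq 1.32.0 without saying what each did. The genome build, annotation and counting tool: not given in the sources used here.

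Library totals came from the ratio of count to FPKM in 625 genes that reached 100 counts and 5 FPKM throughout, and their absolute scale from the lengths of 39 single-transcript genes in GENCODE release 29 (20.2 M reads for untreated replicate 1, 95% interval of the slope 20.0 to 20.7). With 3 counts as the limit that a count of 0 allows, this is at most 0.152 CPM, counting error only. Rounded counts went into edgeR 4.0.16 under R 4.3.3 (filterByExpr, robust quasi-likelihood fit with 4 group means, these totals and no TMM factors), after a test on simulated data. SE is the absolute log2 fold change over the square root of F, and Benjamini-Hochberg adjustment ran over 3429 genes. Members and gene lists were chosen with earlier results of these data known. Values are given for up to 3 members per family with the smallest p in GLY against untreated, and for the 3 smallest in PUE against untreated, GLY_PUE against GLY and the interaction. The alternatives comprised scaling by TMM or RLE, the tools DESeq2 1.42.0 and limma 3.58.1 (voom, and log2 of FPKM plus 0.1 or 1), other filters and thresholds, fits of the compared libraries alone, a replicate block, each library left out and, chosen after seeing the data, all libraries numbered 3 left out. As a check of pairing, deviations from group means of same-numbered libraries correlated at 0.388 to 0.702 in PUE against untreated, 0.173 to 0.397 in GLY_PUE against PUE and 0.192 to 0.382 in GLY_PUE against untreated. All were over 0.1, so there the numbers were taken to pair the libraries. Libraries of different numbers were not correlated, so this check cannot tell pairing from the libraries numbered 3 standing apart. The reported counts, p-values and intervals did not use this pairing, except where a replicate block is named. With that block FOSB, SOX7 and HOXA9 passed in GLY_PUE against PUE, where they did not without it. Promoter windows are from RefSeq. Values of some genes that the rule or lists name are not reported here, though counts include them.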

Additional observations from a re-analysis of the deposited data

How the results depend on the processing

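Scaling changed the counts of lower members more than any other alternative. Members lower with GLY against untreated numbered 18 under TMM and 20 under RLE, against 59 with library totals. For GLY_PUE against PUE they numbered 21 under TMM and 21 under RLE, against 57, and for GLY_PUE against untreated 21 and 22, against 55. Over all genes tested, those lower with GLY against untreated numbered 346 under TMM and 378 under RLE, against 2216 with library totals. In GLY_PUE against PUE TBX18 turned to 0.10 under TMM and 0.078 under RLE. The TMM and RLE values follow from their construction, which centres the listed genes near 0. With a mean of at least 50 counts required, 7 members were higher in GLY_PUE against untreated, against 11, since fewer members were tested. Leaving out 1 library gave 54 to 59 lower and 6 to 10 higher members for GLY against untreated, 50 to 59 and 9 to 11 for GLY_PUE against PUE, and 51 to 58 and 9 to 12 for GLY_PUE against untreated, while PUE against untreated, GLY_PUE against GLY and the interaction stayed at 0 in each direction. Called members that passed in all 12 of these fits numbered 50 lower and 6 higher for GLY against untreated, and 47 and 8 for GLY_PUE against PUE. Without the libraries numbered 3 the counts were 54 lower and 7 higher, and 51 and 9, where EGR1, SOX7, TBX3, TBX1, TBX6, FOXO1, SOX9, IRF8 and ELF3 (−0.62, adjusted p = 0.0588) lost their calls for GLY against untreated, and HOXD11 and FOSB (0.99, adjusted p = 0.00439) passed. DESeq2 gave 59 lower and 9 higher members, and 57 and 11, in the same comparisons. Counts over all genes are not given for the fits with libraries left out, DESeq2 or the replicate block. In the main fit 64.6% of all genes were lower and 19.7% higher for GLY against untreated. The shares were 57.3% and 20.6% for GLY_PUE against PUE, and 57.1% and 20.2% for GLY_PUE against untreated. Whether member counts held better than those of other listed genes was not tested.

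Replicate numbers did not pair the libraries by the rule used in GLY against untreated (correlations 0.0560, 0.0973 and 0.271) or GLY_PUE against GLY (0.0781, 0.304 and 0.316). With a replicate block GLY against untreated gave 60 lower and 10 higher members, adding HOXD11 (−0.73, adjusted p = 0.00825) and FOSB (1.29, adjusted p = 0.00143). Beside the members named in the report, the block changed no other call. Counts of 3 or fewer in some GLY libraries limit SOX14, SOX15, IRF8, HOXA6, HOXA13 and TBX1, and in GLY_PUE libraries IRF8 and TBX6.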
